A study of Mus musculus with 10 samples.

Results

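Differences between 2 lines of mouse embryonic stem cells, conv-dSVA_F&D and conv-dSVA_F, were measured over every gene of the deposited table whose mean over its 7 libraries was at least 10 normalized counts. This took in 15240 of the 54456 genes listed, and 4 libraries carried the comparison, 2 from each line. Both lines are C57BL/6J and share an edited Taf1 locus: a loxP site in intron 24, the swap-in plasmid LPSwapinRed_pUC19 and a humanization with mousified human TAF1 sequence that is marked as converted. Both also list the Cas9 plasmids pSpCas9 and pSpCas9GFP and the Cre plasmid pCAGiCre, and both carry the deletion written SVAdel, which the titles give as dSVA_F. Only conv-dSVA_F&D also carries dSVA2, which the titles give as the SVA_D deletion, so the lines differ in label by that deletion. The cells grew on gelatin with 15% serum, LIF, 3 µM CHIR99021 (a GSK3 inhibitor) and 1 µM PD0325901 (a MEK inhibitor). Both conv-dSVA_D libraries (dSVA2 without SVAdel) entered the fit only to estimate the spread. The wild type library MK6 entered it as a group of its own, which adds no replicate spread. Levels of both are given for reference. The labels name no clone, culture or passage, so the deletion cannot be told apart from the line that carries it, and p-values measure the spread between these libraries, which may be technical.

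SVA elements are composite retrotransposons of apes and humans, and an SVA inserted in an intron of TAF1 causes X-linked dystonia parkinsonism. TAF1 is the largest subunit of TFIID, the factor that recognises core promoters and recruits RNA polymerase II. Embryonic stem cells draw heavily on glycolysis, and the balance of LIF, BMP, WNT and ERK signalling in their medium holds them in a naive pluripotent state.

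Reads assigned to genes came to 24875359 and 21360424 in conv-dSVA_F replicates 1 and 2 and to 23541885 and 16588467 in conv-dSVA_F&D. The second conv-dSVA_F&D library was the shallowest of the 7 and had 19428 genes above 0, against 21560 to 22943 in the others. Across tested genes, and as a description, Pearson r of log2 values was 0.974 between the conv-dSVA_F replicates and 0.959 between those of conv-dSVA_F&D, and across the lines it ran from 0.937 to 0.969, so the first conv-dSVA_F&D library was nearer to conv-dSVA_F replicate 2 (0.969) than to its own replicate. All 8 stem cell markers listed were abundant in the 4 libraries, from 1049 normalized counts of Utf1 to 51708 of Dppa5a. Pou5f1, the pluripotency factor OCT4, stood at 19318 and 21795 in conv-dSVA_F against 18394 and 21871 for conv-dSVA_F&D. The labels give no replicate numbers, so libraries were numbered here in the order of their names. Replicates 1 and 2 are RHLA288 and RHLA289 for conv-dSVA_F, and RHLA290 and RHLA293 for conv-dSVA_F&D. In what follows, values in pairs are replicates 1 and 2 in normalized counts. A difference is log2 of conv-dSVA_F&D over conv-dSVA_F after adding a count of 1, ± its standard error, where the added count shrinks the differences of genes with few reads. Genes were named by size, or by p within gene lists that were chosen with earlier results of these data known. Members named without passing, together with Psph, Gpi1, Pfkfb3 and Bnip3, were picked after their values were seen. A gene is called where limma's Benjamini-Hochberg adjusted p over all tested genes is under 0.05.

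In conv-dSVA_F&D, 8 of 20 genes of glycolysis and 8 of 26 other genes of the response to low oxygen were higher, as were Taf1 itself and several genes of insulin-like growth factor (IGF) signalling and serine synthesis. The growth factor gene Bmp4 and its targets Id1 and Id3 were lower (Id3 by limma only, not by edgeR or DESeq2), together with 268 genes of chromosomes 6 and 8. In all, 597 of 15240 genes were called (3.92%), of which 260 were higher in conv-dSVA_F&D (1.71%) and 337 lower (2.21%). A difference of at least 2-fold was seen in 125 of the higher and 90 of the lower genes. Chromosomes 6 and 8 carry 10.2% of tested genes but 79.5% of the lower calls. Outside chromosomes 6, 8, 18 and Y, where whole-chromosome shifts were seen, 235 of 13311 genes were higher (1.77%) and 67 lower (0.503%); higher genes made up 77.8% of the calls there. Without conv-dSVA_F&D replicate 1 this turned, to 206 higher and 301 lower (40.6% higher). Protein-coding genes made up 244 of the higher and 333 of the lower calls. No called gene had overlapping groups, but neither had 49.3% of all tested genes, so a lack of overlap alone sets no gene apart. The counts of called members in each gene list are to be read against 1.71% higher and 2.21% lower over all genes.

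**Figure D1:**
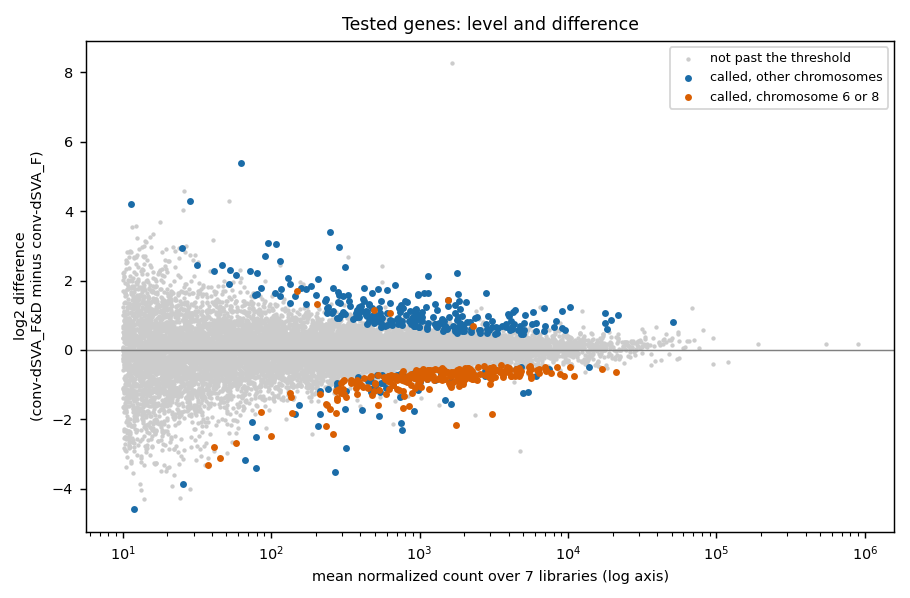
Each point is 1 of the 15240 tested genes, placed by its mean normalized count over 7 libraries (x, log axis) and its log2 difference, conv-dSVA_F&D minus conv-dSVA_F (y). Blue and orange points are the 597 called genes, and those on chromosomes 6 and 8 (orange) lie mostly below 0, with 268 lower and 6 higher.

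The count rests on the replicate spread that the fit assumed. edgeR on the recovered reads called 553 genes (3.63%) and DESeq2 1206 (7.91%), and all 597 differences kept their sign with both. No gene was called by limma without conv-dSVA_F replicate 1 (1794 at unadjusted p under 0.05), without the variance trend (2535) or without the low-value filter (4058), and the other tools were not run in these settings. It called 180 genes without conv-dSVA_F replicate 2, 865 and 421 without conv-dSVA_F&D replicate 1 and 2, 184 and 182 without either conv-dSVA_D library, and 200 from the 4 libraries alone. All 597 differences kept their sign in each of the 6 fits without 1 library, but this could not have come out otherwise. No called gene had overlapping groups, and leaving out a conv-dSVA_D library does not change the difference. The first conv-dSVA_F library lay farther from conv-dSVA_F&D than the second did in 74.4% of the called genes, against 57.4% of all tested genes.

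Levels in the wild type and conv-dSVA_D libraries were compared with the called differences, and did not place all of them on a side. Of the 260 higher genes, the conv-dSVA_F libraries were both below all 5 others in 154, and the conv-dSVA_F&D libraries were both above all 5 others in 155, with 83 genes in both sets and 34 in neither. Of the 337 lower genes, the conv-dSVA_F libraries were both above all 5 others in 246 and the conv-dSVA_F&D libraries both below in 155. For the genes lower outside chromosomes 6, 8, 18 and Y these counts were 36 and 38 of 67. The same shares over all tested genes were not counted. Both patterns require groups without overlap, which every called gene had, so the counts are a description only.

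Taf1, the edited gene (ENSMUSG00000031314, chrX:101532734-101601789, plus strand; a protein-coding gene), was measured at 501 and 589 normalized counts in the conv-dSVA_F replicates 1 and 2 against 1116 and 1088 in the conv-dSVA_F&D libraries. As in every called gene, the groups did not overlap. Both conv-dSVA_F&D libraries lay between conv-dSVA_F and the wild type library (2898), with conv-dSVA_D lowest (362 and 418). The difference was 1.02 ± 0.15, adjusted p = 0.0139 with limma, and it ran from 0.90 to 1.14 over the fits without 1 library, with adjusted p = 0.152 without conv-dSVA_F replicate 1. Whether reads from the human-derived segment were counted is not stated in the labels.

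Of 17 TFIID subunit genes Taf1 was higher and only Taf12, a histone-fold subunit that TFIID shares with the coactivator SAGA, was lower. Taf12 read 1291 and 1216 against 605 and 811, with 1119 in the wild type and 1388 and 1403 in conv-dSVA_D (-0.84 ± 0.16, adjusted p = 0.0242). So conv-dSVA_F&D had the lowest Taf12 of the 7 libraries. Tbp, the TATA-binding subunit, stood at 867 and 934 against 808 and 871 (-0.10, adjusted p = 0.718), and Taf4, Taf5, Taf6, Taf7, Taf8, Taf10 and Taf11 differed by -0.18 to 0.20, none called. The median over the 17 was 0.01, against -0.01 over all tested genes. Of 19 SAGA subunits Taf12 alone was called. Of 29 RNA polymerase II subunits and general factors, Gtf2e2, the small subunit of TFIIE (2520.3 and 2125 against 1373 and 1379, -0.75, adjusted p = 0.0254), and Polr2c, a polymerase core subunit (2778 and 2323 against 1653 and 1456, -0.71, adjusted p = 0.027), were lower. Both lie on chromosome 8, and with chromosome medians set equal they stood at -0.22 and -0.18, not called. Among 23 X-linked genes near Taf1 no gene but Taf1 was called, and Pdzd11, with the next smallest p, stood at 959.8 and 764 against 562 and 603 (-0.56, adjusted p = 0.0823).

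Glycolysis splits glucose into pyruvate, and cells raise its enzymes and glucose uptake when oxygen is short, through the transcription factor HIF-1, which binds sites with the core ACGTG. Of 20 genes for glycolytic enzymes and sugar or lactate transporters, 8 were called higher, 0 lower, and 12 did not pass, with a list median of 0.78 against -0.01 over all genes. Of 26 other hypoxia-inducible genes 8 were called higher and 0 lower, with a median of 0.61. The share of higher calls was 40.0% and 30.8%, against 1.71% of all tested genes. Both lists were chosen with earlier results of these data known, so these shares are a description and no independent support. Without conv-dSVA_F replicate 1 neither list had a call, and without its replicate 2 they had 9 and 6. Without conv-dSVA_F&D replicate 1 they had 3 and 3, and 4 and 3 without its replicate 2. Without either conv-dSVA_D library, which served only to estimate the spread, they had 1 and 2.

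At the head of the pathway, Slc2a1, the glucose transporter GLUT1 (ENSMUSG00000028645, chr4:119108711-119137983, plus strand), read 4074 and 5407 normalized counts in the conv-dSVA_F replicates 1 and 2 against 8367 and 7602 in the conv-dSVA_F&D libraries (0.77 ± 0.14, adjusted p = 0.0231). Hk1, the hexokinase that traps glucose in the cell, read 676 and 788 against 1969 and 1518 (1.24 ± 0.21, adjusted p = 0.0183). Gpi1, which converts glucose 6-phosphate to fructose 6-phosphate, read 10180.0 and 14994 against 22638 and 20065 (0.79, adjusted p = 0.0431). For all 3 genes, as for every called gene, the groups did not overlap, and conv-dSVA_F replicate 1 was lowest of the 4. Pfkl, the liver-type phosphofructokinase at the committed step, read 3073 and 5731 against 11064 and 8576 (1.22 ± 0.25, adjusted p = 0.0313). The muscle and platelet forms Pfkm and Pfkp were at 0.86 and 0.79 without passing.

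Farther down, the aldolases Aldoa (29403 and 43279 against 64967 and 59756, 0.81, adjusted p = 0.0408) and Aldoc (157 and 447 against 1152 and 822, 1.87, adjusted p = 0.0415), the phosphoglycerate kinase Pgk1 (2477 and 4429 against 7740.5 and 6383, 1.08, adjusted p = 0.0384) and the enolase Eno1 (11355 and 18291 against 30316 and 28086, 1.02, adjusted p = 0.0237) were higher. All 4 had conv-dSVA_F replicate 2 between replicate 1 and conv-dSVA_F&D, so the spread within conv-dSVA_F was wide. Aldoc was not called by edgeR (adjusted p = 0.0527) or DESeq2 (adjusted p = 0.0844). With chromosome medians set equal, limma called neither Aldoc (adjusted p = 0.0652) nor Aldoa (adjusted p = 0.0718). Wild type levels of Aldoa (61675), Aldoc (872) and Pgk1 (7588) lay within or near the range of conv-dSVA_F&D, whereas those of Hk1 (1135), Slc2a1 (5276) and Eno1 (19744) lay below it. Summed over the glycolysis list, levels were 240013 and 327279 in conv-dSVA_F against 409604 and 382438 in conv-dSVA_F&D. The sums were 362515 and 406577 in conv-dSVA_D and 380570 in the wild type, so conv-dSVA_F was lowest and conv-dSVA_F&D lay near the others. Pgam1 (0.51, adjusted p = 0.0537), the lactate dehydrogenase Ldha (0.67, adjusted p = 0.0898), the pyruvate kinase Pkm (0.59, adjusted p = 0.0945) and the lactate exporter Slc16a3 (1.20, adjusted p = 0.127) did not pass. Several of these genes have processed or recent copies (Eno1b is a close copy of Eno1), and reads may be shared among them.

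The 5 members on chromosome 6 stood apart. Eno2 (58.7 and 79.2 against 18.3 and 19.5, -1.80, adjusted p = 0.105), Slc2a3 (-0.29), Hk2 (-0.29), Gapdh (0.09) and Tpi1 (0.51) had lower differences than most, none called, and with chromosome medians set equal they were at -1.40, 0.11, 0.10, 0.49 and 0.91. Over the 15 members on other chromosomes the median was 0.81. The list's median ran from 0.44 without conv-dSVA_F replicate 1 to 1.02 without its replicate 2. conv-dSVA_F replicate 1 lay farther from conv-dSVA_F&D than replicate 2 in 16 of the 20 genes.

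Among the other hypoxia-inducible genes, Egln3, an oxygen-sensing prolyl hydroxylase, read 137 and 335 against 706 and 777 (1.78 ± 0.35, adjusted p = 0.0264), and Ndrg1, a stress-response gene, read 233 and 282 against 732 and 862 (1.63 ± 0.27, adjusted p = 0.0183). Both were above all other libraries, the wild type included (422 and 496). Pfkfb3, which makes the activator of phosphofructokinase, read 141 and 399 against 744 and 875 (1.76, adjusted p = 0.0365), and the mitophagy receptor Bnip3 666 and 1207 against 2531 and 2156 (1.38, adjusted p = 0.0355). P4ha1, a collagen prolyl hydroxylase (597 and 815 against 1331 and 1341, 0.94, adjusted p = 0.0311), Mxi1, a MYC antagonist (405 and 371 against 744 and 651, 0.84, adjusted p = 0.0264), Ddit4, an inhibitor of mTORC1 (889 and 876 against 1507 and 1286, 0.66, adjusted p = 0.0301), and the secreted glycoprotein Stc2 complete the called set. Pfkfb3 and Mxi1 too were highest in conv-dSVA_F&D. For Ddit4 both conv-dSVA_D libraries (1608 and 1739.7) lay above conv-dSVA_F&D. The wild type lay above it for Bnip3 (3095) and P4ha1 (1412), and between the conv-dSVA_F&D libraries for Stc2. Summed over this hypoxia list, levels were 25547 and 28252 in conv-dSVA_F against 34460 and 34593 in conv-dSVA_F&D. The sums were 25396 and 33203 in conv-dSVA_D and 34409 in the wild type, so conv-dSVA_F&D lay near the wild type. Vegfa, the vascular growth factor (261 and 333 against 682 and 482, 0.96, adjusted p = 0.0786), and Bhlhe40 (135 and 494 against 1175 and 875, 1.97, adjusted p = 0.101) did not pass, and the carbonic anhydrase gene Car9, a common hypoxia marker, was under the filter at 6.81 and 12.2 against 16.5 and 0. Egln1, another oxygen sensor, and Kdm3a and Pdk1 were at 0.26, -0.16 and 0.21.

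**Figure D2:**
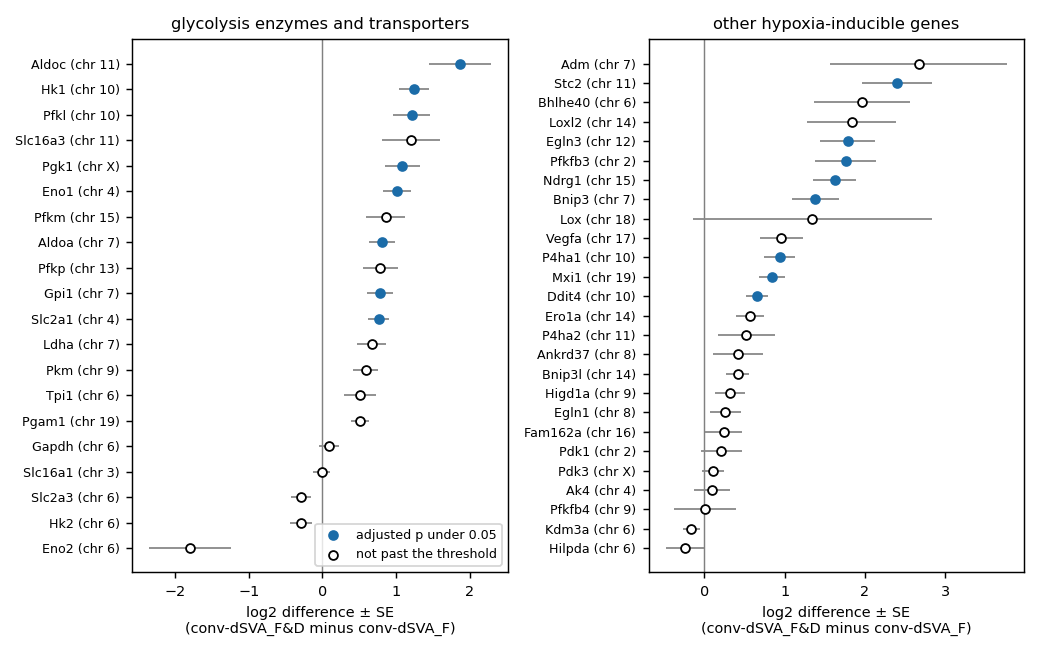
Log2 difference, conv-dSVA_F&D minus conv-dSVA_F (x), with its standard error, for each tested member of the glycolysis list (left, 20 genes) and of the list of other hypoxia-inducible genes (right, 26 genes). Filled points are the 8 called genes in each list, all above 0, and the 3 lowest members on the left (Eno2, Slc2a3 and Hk2) lie on chromosome 6.

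To show where the HIF-1 core lies in genes of both lists, called or not, the 250 bases before the most upstream RefSeq start (GRCm38.p6) were searched for ACGTG on either strand. It was found in 8 of 19 glycolysis promoters in the table (42.1%, Wilson 95% interval 23.1 to 63.7) and in 11 of 21 of the other hypoxia-inducible genes (52.4%, 32.4 to 71.7), against 21.8% of 10904 promoters of tested genes and 16.5% of all 27025 promoters. Among called members it was in 2 of 8 and 5 of 7, and among the others in 6 of 11 and 6 of 14. Within 100 bases the shares were 21.1% and 38.1%, against 10.4% to 11.6% (Wilson 95% interval) of tested genes. The 5 promoters that follow belong to called genes of both lists, printed 5′ to 3′ on the gene's strand with each ACGTG or its reverse complement in capitals.
Slc2a1 (chr4:119108495-119108744, plus strand): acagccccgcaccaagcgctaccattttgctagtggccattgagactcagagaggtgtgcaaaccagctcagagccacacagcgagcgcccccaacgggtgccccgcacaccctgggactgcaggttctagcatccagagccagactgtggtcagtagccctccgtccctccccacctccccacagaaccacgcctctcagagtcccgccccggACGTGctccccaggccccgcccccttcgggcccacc
Pgk1 (chrX:106186850-106187099, plus strand): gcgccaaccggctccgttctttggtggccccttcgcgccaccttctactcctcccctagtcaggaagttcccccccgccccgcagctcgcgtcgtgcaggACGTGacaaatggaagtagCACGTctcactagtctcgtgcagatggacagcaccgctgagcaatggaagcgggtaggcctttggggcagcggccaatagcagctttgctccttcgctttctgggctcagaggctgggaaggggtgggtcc
Bnip3 (chr7:138909507-138909756, minus strand): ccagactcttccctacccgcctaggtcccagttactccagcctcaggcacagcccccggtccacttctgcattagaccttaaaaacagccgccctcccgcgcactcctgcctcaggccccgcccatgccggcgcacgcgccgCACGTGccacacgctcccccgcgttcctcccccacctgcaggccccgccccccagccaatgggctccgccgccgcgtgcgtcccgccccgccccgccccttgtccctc
P4ha1 (chr10:59323046-59323295, plus strand): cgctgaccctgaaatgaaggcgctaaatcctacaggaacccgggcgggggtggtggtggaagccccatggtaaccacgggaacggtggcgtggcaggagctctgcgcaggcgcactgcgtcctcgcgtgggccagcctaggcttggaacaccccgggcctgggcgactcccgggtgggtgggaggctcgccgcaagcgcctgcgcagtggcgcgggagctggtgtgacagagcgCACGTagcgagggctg
Pfkfb3 (chr2:11553930-11554179, minus strand): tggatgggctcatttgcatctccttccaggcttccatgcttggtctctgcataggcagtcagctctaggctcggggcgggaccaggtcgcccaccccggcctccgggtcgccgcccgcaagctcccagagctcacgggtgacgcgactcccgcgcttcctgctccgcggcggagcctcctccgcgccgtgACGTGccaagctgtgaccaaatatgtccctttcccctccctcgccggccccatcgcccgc
A match of 5 letters is a description and no proof of a site. In Slc2a1 the match starts 36 bases before the start, in P4ha1 16 and in Pfkfb3 60, and Pgk1 and Bnip3 have 2 each, which overlap in Bnip3. The windows of Hk1, Pfkl, Gpi1, Aldoa, Aldoc and Eno1 hold none of these letters.

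Of 25 nuclear genes of the respiratory chain none was called by limma (7 had an unadjusted p under 0.05; edgeR called 0 and DESeq2 1), with a median of 0.07, and of 7 transcripts of the mitochondrial genome none was called (0 had an unadjusted p under 0.05; edgeR called 0 and DESeq2 0), with a median of -0.36. mt-Nd1 read 15490.4 and 9636 against 9689.8 and 8658, where conv-dSVA_F replicate 1 alone was high. The ATP synthase gene Atp5a1, on chromosome 18, read 24349.9 and 26821 against 31877 and 47867 (0.61, adjusted p = 0.0856) and was high in the second conv-dSVA_F&D library.

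Of 23 genes of the amino acid response, which ATF4 controls, 5 were higher (21.7%, against 1.71% of all tested genes) and 2 lower (8.7%, against 2.21%), with a median of 0.23. Leaving out 1 library gave 1 or 2 higher calls, and 0 without conv-dSVA_F replicate 1, and with chromosome medians set equal 2 were higher and 0 lower. Phgdh, the first enzyme of serine synthesis, read 1515 and 1621 against 3117 and 2446 (0.82 ± 0.16, adjusted p = 0.0269), and Psph, the last, 741 and 842 against 1269.9 and 1202 (0.65, adjusted p = 0.0481). Shmt2, the mitochondrial enzyme from serine to glycine, read 3123 and 4248 against 5764 and 5863 (0.67, adjusted p = 0.0373). The middle enzyme, Psat1, read 6513 and 6711 against 9249 and 9035 and did not pass (0.47, adjusted p = 0.127). Pck2, which makes phosphoenolpyruvate in mitochondria, read 856 and 920.1 against 2066 and 1906 (1.16 ± 0.18, adjusted p = 0.0163), and Cth, of cysteine synthesis, 4271 and 4087 against 5492 and 5888 (0.45, adjusted p = 0.047). Cth was not called by edgeR (adjusted p = 0.0513). The lower members were the amino acid transporter Slc7a5 on chromosome 8 (4779 and 4983 against 3303 and 3151, -0.60, adjusted p = 0.0212) and the folate enzyme Mthfd2 on chromosome 6 (2314 and 2459 against 1486 and 1486, -0.68, adjusted p = 0.0231). With chromosome medians set equal they stood at -0.07 and -0.28, not called (adjusted p = 0.812 and 0.256). Asns and Atf4 themselves stood at 0.03 and -0.34, not called.

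IGF binding proteins capture insulin-like growth factors outside the cell and set how much reaches the receptor. Of 16 tested genes of this pathway 4 were higher (25%, against 1.71% of all tested genes) and 0 lower, with a median of 0.56. Leaving out 1 library gave 3 or 4 higher calls, and 0 without conv-dSVA_F replicate 1. Igfbp4 (ENSMUSG00000017493, chr11:99041244-99054392, plus strand) had the largest higher difference among called genes with a mean of at least 100. It read 28.1 and 98.5 normalized counts in the conv-dSVA_F replicates 1 and 2 against 650.1 and 486 in the conv-dSVA_F&D libraries, with 228 in the wild type and 91.2 and 153 in conv-dSVA_D (3.39 ± 0.51, adjusted p = 0.0139), so conv-dSVA_F&D lay above all 5 others. Igfbp2, the most abundant binding protein here, read 5271 and 7054 against 13772 and 14933 (1.23 ± 0.18, adjusted p = 0.013), near the wild type level of 14159. Igf2bp2, an RNA-binding protein of Igf2 and other messages, read 1207 and 1261 against 3129.5 and 2499 (1.18 ± 0.14, adjusted p = 0.0108). Stc2, which inhibits the protease that cuts IGF binding proteins, read 55.3 and 161 against 428 and 593 (2.40 ± 0.43, adjusted p = 0.023) and counts on the hypoxia list too.

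The receptor genes Igf1r (567 and 571 against 858 and 678, 0.42), Igf2r (2187 and 2327 against 3669.7 and 2535, 0.43) and Insr (-0.12) were not called, nor was the adaptor gene Irs2 (287 and 254 against 449 and 421, 0.69, adjusted p = 0.0935). Igfbp7 read 112 and 35.5 against 13.7 and 15.3 (-2.05, adjusted p = 0.0816) and Igfbp5 9.36 and 10.2 against 67.8 and 22.3 (1.90, adjusted p = 0.163), both without passing. Among ligands, Igf2 was low and scattered (21.3 and 8.12 against 5.49 and 43.2) and Igf1 was at most 0.85 in any of the 4 libraries. Grb10, the imprinted adaptor that restrains insulin and IGF receptors, read 727 and 1089.7 against 3201 and 2377 (1.63 ± 0.30, adjusted p = 0.0231), and its levels in the wild type (3603) and conv-dSVA_D (2887 and 5723) left conv-dSVA_F lowest of the 7.

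BMP signals act through SMAD1 and SMAD5 on the Id genes, which block differentiation factors. Id1 (ENSMUSG00000042745, chr2:152736251-152737410, plus strand) read 1907 and 1069 normalized counts in the conv-dSVA_F replicates 1 and 2 against 223 and 368 in the conv-dSVA_F&D libraries (-2.31 ± 0.35, adjusted p = 0.0144), and Id3 2358 and 1702 against 472 and 1124 (-1.46 ± 0.34, adjusted p = 0.0458). The ligand gene Bmp4 (ENSMUSG00000021835, chr14:46383520-46390669, minus strand) read 120.0 and 188 against 13.7 and 18.1 (-3.17 ± 0.51, adjusted p = 0.0176). In all 3, as in every called gene, the groups did not overlap. The wild type stood with conv-dSVA_F&D for Id1 (439.9), Id3 (658) and Bmp4 (33.8). In conv-dSVA_D, Id1 read 472 and 882, Bmp4 63.4 and 30.2, and Id3 2290 and 1727, near the conv-dSVA_F level. Id3 was not called by edgeR (adjusted p = 0.0576) or DESeq2 (adjusted p = 0.105). These 3 were the only calls among 16 tested genes of Nodal and BMP signalling, whose median was 0.26. Id2 (779 and 373 against 585 and 546, 0.07) and Id4 (0.58) were not called, and the BMP-responsive homeobox genes Msx1 (48.5 and 19.3 against 10.1 and 0) and Msx2 (198 and 114 against 42.1 and 69.7, -1.45, adjusted p = 0.237) did not pass.

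On the Nodal side no gene was called. The Nodal antagonist Lefty1 read 75.7 and 318 against 646 and 1081 (2.42, adjusted p = 0.0618) and Lefty2 584 and 1229 against 1908 and 1762 (1.11, adjusted p = 0.207). The SMAD co-repressor Skil read 1216 and 1565 against 2208 and 2505 (0.77, adjusted p = 0.065), and Nodal itself 1944 and 1813 against 2221 and 2226 (0.24, adjusted p = 0.249).

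WNT stabilises beta-catenin, which acts with TCF and LEF factors, and the GSK3 inhibitor in the medium has the same effect. Of 18 WNT targets Lef1 and Notum were higher and none lower (median 0.33). Lef1, a DNA-binding partner of beta-catenin (ENSMUSG00000027985, chr3:131110471-131224356, plus strand), read 50.2 and 108 normalized counts in the conv-dSVA_F replicates 1 and 2 against 368 and 928 in the conv-dSVA_F&D libraries (2.97 ± 0.51, adjusted p = 0.0201). The conv-dSVA_F&D libraries were the highest of the 7 but differed widely from each other. Notum, a secreted enzyme that inactivates WNT, read 233 and 383 against 664 and 612 (1.09 ± 0.23, adjusted p = 0.0368), near the wild type level of 669. The other 16 were not called, and 13 of the 18 differences were above 0. Among these 16, Tnfrsf19, a receptor gene, read 313 and 367 against 559 and 673 (0.85, adjusted p = 0.0803), and Cdx1 and Tcf7 stood at 0.84 and 0.42. The feedback gene Axin2 read 482 and 613 against 569.5 and 997 (0.47, adjusted p = 0.343), Sp5 46.0 and 82.3 against 38.5 and 109 (0.07), T 30.6 and 42.6 against 20.1 and 72.4 (0.09) and Myc 372 and 356 against 126 and 216 (-1.14, adjusted p = 0.14). The TCF and LEF core CTTTGA, on either strand within 250 bases before the start, was in 3 of 11 promoters of this list (27.3%, Wilson 95% interval 9.7 to 56.6), against 10.8% of tested genes, and the window of Lef1 holds none. Within 100 bases it was in 0 of 11, against 3.4%.

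ERK is held down in this medium by the MEK inhibitor, and the genes of its negative feedback follow its activity. Of 15 such genes 1 was higher and 1 lower (median -0.34). Spry4, an inhibitor of receptor tyrosine kinase signalling on chromosome 18, read 1025 and 1055 against 148 and 393 (-2.10 ± 0.44, adjusted p = 0.0339). Its conv-dSVA_F&D levels lay between conv-dSVA_F and the wild type (49.1), and conv-dSVA_D read 1811 and 803. Spry4 was not called by DESeq2 (adjusted p = 0.0523). Etv4 (1684 and 2036 against 362 and 1045, -1.59, adjusted p = 0.058) and the ERK phosphatase Dusp6 (703 and 670.3 against 307 and 297, -1.18, adjusted p = 0.07) did not pass. The early response gene Ier3 was higher (219.5 and 276 against 491 and 579.5, 1.11, adjusted p = 0.0282). Of 15 immediate early genes the AP-1 factors Jund (1031 and 905 against 371 and 436, -1.26 ± 0.19, adjusted p = 0.0139) and Junb (295 and 459 against 139 and 89.2, -1.72 ± 0.30, adjusted p = 0.0217) were lower. Both are on chromosome 8, and with its median set equal they were at -0.73 (adjusted p = 0.0668) and -1.18 (adjusted p = 0.0977). Jun, on chromosome 4, read 105 and 98.5 against 96.1 and 30.6 (-0.89, adjusted p = 0.373).

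Of 18 naive pluripotency genes Klf2 and Tcl1 were higher and none lower (median 0.22). Klf2, a Krüppel-like factor of naive cells, read 1698 and 1758 against 2880.5 and 2693 (0.69 ± 0.12, adjusted p = 0.0199) and was the only called gene on chromosome 8 to be higher. Tcl1, a coactivator of AKT, read 850.0 and 1199 against 2148 and 1762 (0.95 ± 0.22, adjusted p = 0.0441). None of 7 core factors was called by limma (2 had an unadjusted p under 0.05; edgeR called 0 and DESeq2 0), with Sox2 at 3906 and 4017 against 5316 and 4727 (0.34, adjusted p = 0.12) and Sall4 at 0.40. Il6st, the gp130 receptor chain that carries the LIF signal, was higher (1219 and 1427 against 1945 and 2076, 0.61 ± 0.13, adjusted p = 0.0316), while the STAT3 feedback gene Socs3 stood at 0.25. None of 11 formative and primed genes was called (3 had an unadjusted p under 0.05; edgeR called 0 and DESeq2 2), though Otx2, a factor of the transition out of the naive state, read 27.2 and 24.4 against 89.7 and 98.9 (1.83, adjusted p = 0.0996).

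Among 6 tested PRAME family genes only Pramel6 was called, and it was lower. Pramel6, a PRAME-family gene of naive and preimplantation cells read 944 and 343 normalized counts in the conv-dSVA_F replicates 1 and 2 against 57.7 and 40.4 in the conv-dSVA_F&D libraries (-3.53 ± 0.47, adjusted p = 0.0114), below the wild type (184) and conv-dSVA_D (108 and 197). Its neighbour and near relative Pramel7 read 1617 and 949 against 591 and 134 (-2.13, adjusted p = 0.0599), and reads may be shared between them. Of 14 tested genes of the 2-cell-like state none was called (2 had an unadjusted p under 0.05; edgeR called 0 and DESeq2 0), with a median of -0.43 that ran from -0.70 to 0.20 over the fits without 1 library. Zscan4d read 242 and 142 against 109.9 and 72.4, with 428 in the wild type and 16.3 and 15.5 in conv-dSVA_D. The X-linked reproductive homeobox gene Rhox6 read 1265 and 420.4 against 51.3 and 199 (-2.84 ± 0.62, adjusted p = 0.0393).

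Markers of other cell types were checked because a bulk level cannot tell fewer cells of a type from less RNA per cell. Summed over 16 trophoblast genes the level was 8217 and 3679 in conv-dSVA_F against 2850.3 and 3473 for conv-dSVA_F&D, so 1 library stood high. Gata2, a trophoblast and blood factor on chromosome 6, was the only call of 12 tested, lower at 1133 and 278 against 98.9 and 107 (-2.44 ± 0.54, adjusted p = 0.0408), and the simple-epithelial keratins Krt8 (1765 and 609 against 320.5 and 508) and Krt18 (2310.2 and 734 against 448 and 497) were high in the same library without passing (adjusted p = 0.115 and 0.08). With chromosome medians set equal Gata2 stood at -2.04 and was not called (adjusted p = 0.0948). The defining placental genes Tpbpa and Prl3d1 were at 0 in all 4 libraries. Primitive endoderm genes summed to 26413 and 26522 in conv-dSVA_F against 31561 and 29189.6 for conv-dSVA_F&D, where Lamb1, a laminin chain, was higher (1683 and 1748 against 2841 and 2477, 0.63, adjusted p = 0.025) and Gata4, Afp and Ttr stayed at or under 44.0. Of 14 tested, the rest did not pass. The part of these markers in other results was not tested.

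Of 9 tested fibroblast and feeder markers 1 was higher and 1 lower. Fn1, fibronectin, which stem cells also make, read 10822 and 12398 against 28248 and 21092 (1.07 ± 0.16, adjusted p = 0.013) and made up nearly all of the list's sum. Acta2, smooth-muscle actin, read 115 and 79.2 against 14.7 and 4.18 (-3.42 ± 0.66, adjusted p = 0.0263), with 299 in the wild type. Postn, Twist2, Lum and Mgp were at 0 in all 4 libraries, and Col3a1 was at 0.85 or less. Of 7 tested neural genes Ncam1, a cell adhesion gene, was higher (285 and 385 against 721 and 820.5, 1.21 ± 0.19, adjusted p = 0.0163), while Nes (-0.01) and Map2 (-0.19) were not called. None of 6 mesoderm genes was called (1 had an unadjusted p under 0.05; edgeR called 0 and DESeq2 0), and none of 6 striatal neuron markers (2 had an unadjusted p under 0.05; edgeR called 0 and DESeq2 1). Rgs9 and Ppp1r1b, both of dopamine signalling in the striatum, read 96.2 and 70.1 against 171 and 206 and 8.51 and 6.09 against 17.4 and 46.0. Of 20 dystonia genes Taf1 and Slc2a1 were higher and Sgce, a sarcoglycan gene, was lower, while Tor1a (-0.00) and Thap1 (-0.25) were not called.

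Imprinted genes are read from 1 parental copy. Of 19 paternally expressed genes 3 were lower and 0 higher, with a median of -0.43. Mest, on chromosome 6 (ENSMUSG00000051855, chr6:30723547-30748465, plus strand), read 3465 and 3522 normalized counts in the conv-dSVA_F replicates 1 and 2 against 669 and 915 in the conv-dSVA_F&D libraries (-2.16 ± 0.20, adjusted p = 0.00425). Its replicates were close in each group, with 537 in the wild type, and with chromosome medians set equal the difference was -1.76 (adjusted p = 0.00735). Sgce, also on chromosome 6, read 147 and 91.4 against 18.3 and 8.36 (-3.12 ± 0.61, adjusted p = 0.0264), and its neighbour Peg10 10105 and 2484 against 1032 and 1803 (-1.88, adjusted p = 0.259). Nnat, on chromosome 2, read 358 and 365 against 67.8 and 148 (-1.84 ± 0.35, adjusted p = 0.0252). In all 3 called genes conv-dSVA_F was higher than every other library. Of 12 maternally expressed genes only Grb10, described above, was called, and H19 (2100.0 and 554 against 514 and 1432, -0.33) and Meg3 (273 and 322 against 252 and 518, 0.28) varied as much within as between the lines.

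Genes of motile cilia were low in level and mostly scattered. Of 24 tested, 3 were higher (12.5%, against 1.71% of all tested genes) and 0 lower. The median was 0.52 and ran from 0.16 to 0.65 over the fits without 1 library. Dnai2, an outer-arm dynein chain, read 16.2 and 39.6 against 229 and 209 (3.06 ± 0.64, adjusted p = 0.0339), Cfap206 28.9 and 39.6 against 166 and 258 (2.58 ± 0.36, adjusted p = 0.013) and Rfx2, a factor that drives cilium genes, 624 and 730.2 against 1473 and 1088 (0.91, adjusted p = 0.0259). Their master regulator Foxj1 was under the filter at 17.0 and 7.11 against 2.75 and 0. Of 16 tested interferon and antigen presentation genes only Ifitm1, an interferon-inducible membrane protein also found in early germ cells, was called, higher at 322 and 593 against 1626 and 2239 (2.12 ± 0.29, adjusted p = 0.0124), while Isg15 and Ifit1 were at 0 in all 4 libraries. Of 23 germline genes only Aurkc, a meiotic Aurora kinase, was called, higher at 75.7 and 76.2 against 367 and 267 (2.03 ± 0.26, adjusted p = 0.0114), with 423 in the wild type.

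Of 16 detoxification genes 1 was higher and 2 lower. Ephx2, an epoxide hydrolase on chromosome 14, read 388 and 838 against 2964 and 2404 (2.23 ± 0.29, adjusted p = 0.0114), and Nqo1, the quinone reductase on chromosome 8 and a classic NRF2 target, 6555 and 4183 against 1255 and 1684 (-1.85 ± 0.23, adjusted p = 0.0108). With chromosome medians set equal Nqo1 was still lower (-1.32, adjusted p = 0.0136), whereas Hmox1, also on chromosome 8 (2723 and 2475 against 1562 and 1743, -0.65, adjusted p = 0.0461), was at -0.12 and not called. Of 27 genes of cholesterol synthesis Hmgcs1 was higher (2824 and 3143 against 4944 and 5036, 0.74 ± 0.11, adjusted p = 0.0134), and Mvd (-0.81) and Msmo1 (-0.67), both on chromosome 8, were lower; with chromosome medians set equal these stood at -0.28 and -0.13, not called. Of 26 chaperone and stress genes Pdia6 was higher (0.54, adjusted p = 0.0411), and Herpud1 (-1.10, adjusted p = 0.0254) and Dnajb1 (-0.69, adjusted p = 0.0316), again on chromosome 8, were lower, and at -0.57 and -0.15 with chromosome medians set equal neither was called.

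None of 77 ribosomal protein genes was called (8 had an unadjusted p under 0.05; edgeR called 0 and DESeq2 1), with a median of 0.16 and 69 differences above 0. Of 23 G2 and M phase genes the spindle checkpoint kinase Bub1b was higher (4335 and 3588 against 5375 and 6361, 0.57, adjusted p = 0.0443). Of 20 S phase genes Slbp, which binds histone messages (3152 and 3270.0 against 2378 and 2055, -0.54, adjusted p = 0.0481), and Gins2, on chromosome 8 (-0.71, adjusted p = 0.0247), were lower. With chromosome medians set equal neither was called, at -0.56 (adjusted p = 0.0655) and -0.18 (adjusted p = 0.539), and edgeR did not call Slbp (adjusted p = 0.0602). Of 19 p53 targets the nuclease gene Aen was higher (1135 and 1165 against 1992 and 1747, 0.70, adjusted p = 0.0231), and Cdkn1a (0.36) was not called. None of 9 DNA methylation genes was called (1 had an unadjusted p under 0.05; edgeR called 0 and DESeq2 0), with the demethylase Tet2 at 7962 and 6758 against 6612 and 5172 (-0.33, adjusted p = 0.224), and none of 21 zinc genes (5 had an unadjusted p under 0.05; edgeR called 0 and DESeq2 2) was called. Smarcad1, on chromosome 6, was the only call of 22 retrotransposon-silencing factors (-0.55, adjusted p = 0.0263; -0.15 with chromosome medians set equal, not called).

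**Figure D3:**
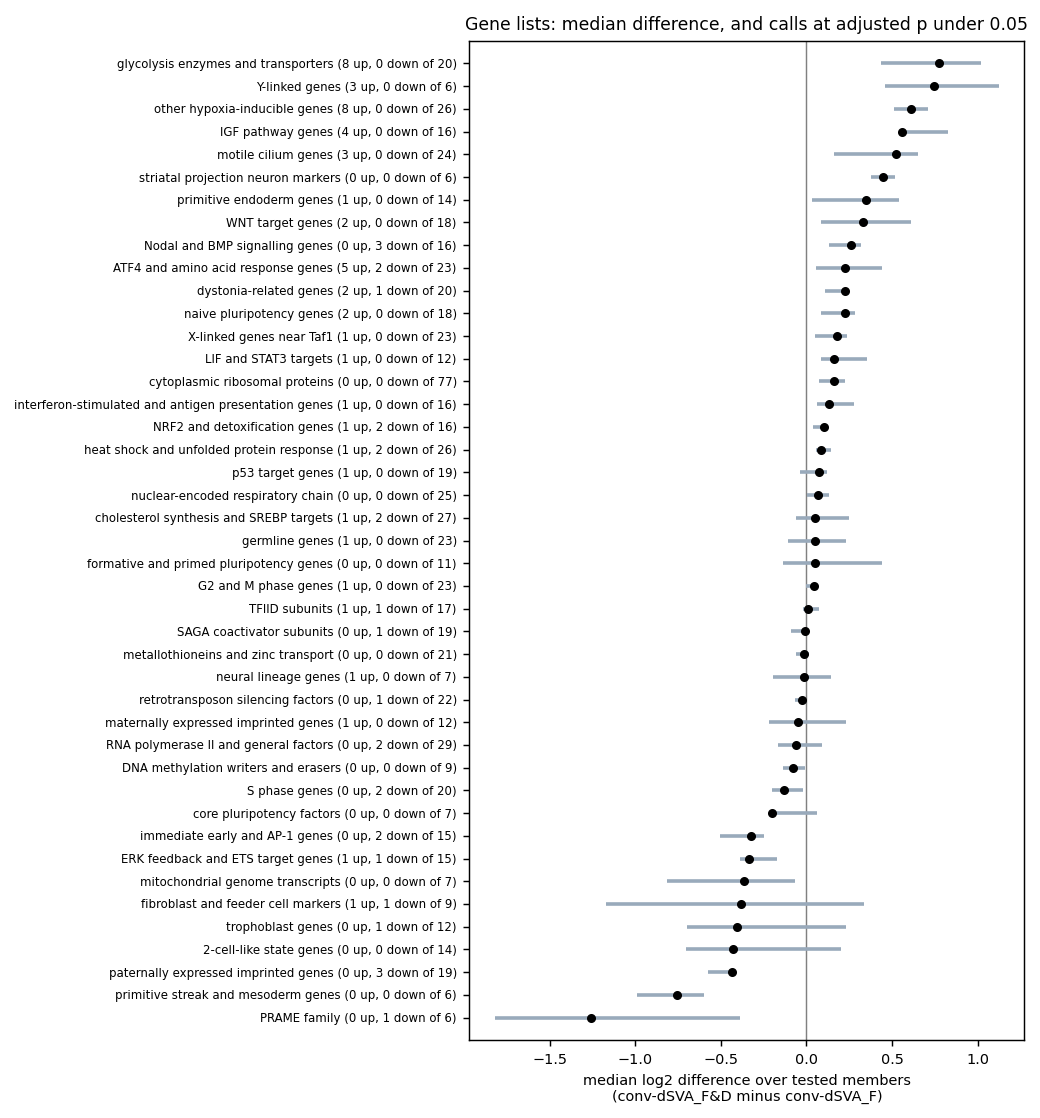
Median log2 difference, conv-dSVA_F&D minus conv-dSVA_F, over the tested members of each of the 43 gene lists (points), with the range of that median over the 6 fits that leave out 1 library (bars). The labels give the called genes in each direction and the number tested; glycolysis (0.78) has the highest median and the PRAME family (-1.26) the lowest.

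Beyond the lists, the largest calls outside the shifted chromosomes were named by size. Among higher genes, Stk33, a serine kinase gene, read 25.5 and 68.0 against 212 and 150.4 (2.07, adjusted p = 0.043), Serpina3m, a serine protease inhibitor, 55.3 and 52.8 against 201 and 208 (1.90 ± 0.29, adjusted p = 0.0144), and Ap3b2, an adaptor subunit of neurons, 89.3 and 106 against 248 and 489 (1.83, adjusted p = 0.0432). The wild type exceeded both conv-dSVA_F&D libraries for Stk33 (275) and Serpina3m (249). Among lower genes, Plaur, the urokinase receptor, read 351 and 260.0 against 76.0 and 90.5 (-1.85, adjusted p = 0.0231), Sfn, the 14-3-3 protein of epithelia, 1418 and 1115 against 578 and 418 (-1.35 ± 0.19, adjusted p = 0.013), and Nckap1l, an actin regulator of blood cells, 652 and 521 against 219 and 146 (-1.70, adjusted p = 0.0199). For these 3, conv-dSVA_F was above all 5 other libraries. Lrp2, the endocytic receptor megalin, read 5304 and 2110.3 against 1025 and 1247 (-1.56, adjusted p = 0.0391) but only 421 and 318 in conv-dSVA_D.

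Dzip3, a ubiquitin ligase, read 1329 and 1181 against 419 and 326 (-1.76 ± 0.21, adjusted p = 0.0108), with 1316 in the wild type and 735 and 1136 in conv-dSVA_D, so here both conv-dSVA_F&D libraries were below all 5 others. Tor3a, a torsin family ATPase, read 197 and 231 against 76.9 and 64.1 (-1.59 ± 0.29, adjusted p = 0.0229) with 67.7 in the wild type and 245 and 193 in conv-dSVA_D. The histone gene H2bc1 read 749.6 and 575 against 175 and 224 (-1.72 ± 0.23, adjusted p = 0.0114). On the shifted chromosomes, the lower genes named by size also took in Gpnmb (367 and 115 against 24.7 and 51.5, -2.49, adjusted p = 0.0452) and Krcc1 (534 and 339 against 92.5 and 91.9, -2.19 ± 0.33, adjusted p = 0.0144) on chromosome 6, and the antisense gene Rbfaos (1222 and 1198 against 260.0 and 401, -1.90 ± 0.23, adjusted p = 0.0108) on chromosome 18, whose reads cannot be told apart from its partner's if the counting ignored strand. With chromosome medians set equal Gpnmb was not called (-2.09, adjusted p = 0.104), while Krcc1 and Rbfaos were (adjusted p = 0.0335 and 0.00298).

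**Figure D4:**
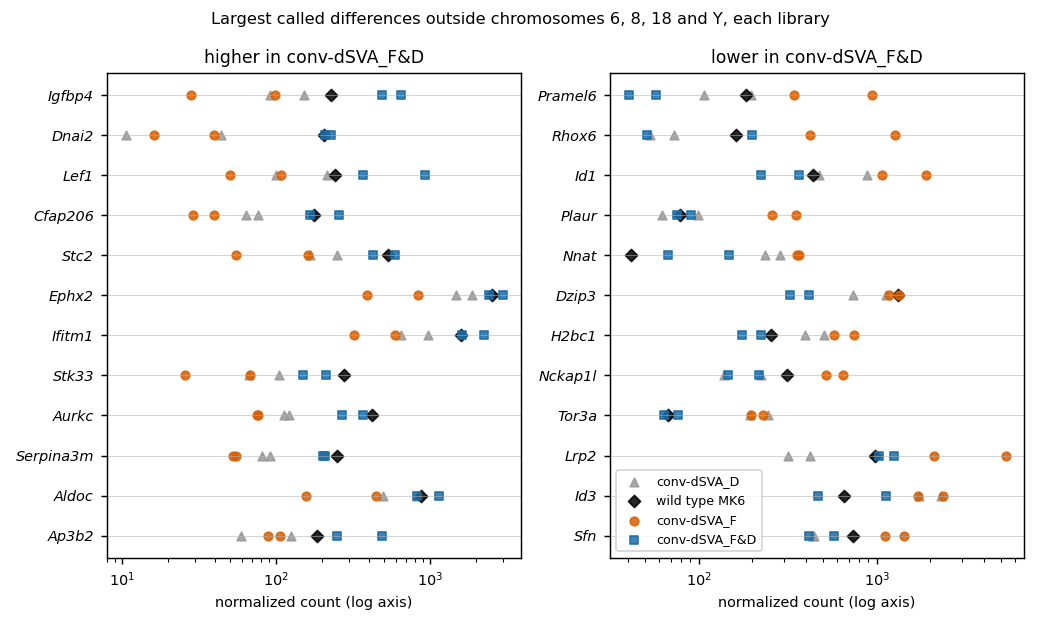
Normalized counts (log axis) in each of the 7 libraries for the 12 genes with the largest called difference in each direction outside chromosomes 6, 8, 18 and Y, with a mean of at least 100. Genes were chosen so that the conv-dSVA_F&D squares and the conv-dSVA_F circles do not overlap. The wild type diamond lies within or near the conv-dSVA_F&D pair for Aldoc and Plaur and with conv-dSVA_F for Dzip3.

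Whole chromosomes differed between the lines. On chromosome 8 the median over 811 tested genes was -0.55, and 171 genes were lower (21.1%) and 1 higher. On chromosome 6 it was -0.41 over 739 genes, with 97 lower (13.1%) and 5 higher, among them the lactate dehydrogenase gene Ldhb (707 and 905 against 1968 and 2421, 1.45 ± 0.17, adjusted p = 0.0108), named after its value was seen. The 16 autosomes other than 6, 8 and 18 had medians of -0.02 to 0.06 and at most 0.9% of genes lower. For the 4 pairs of libraries the chromosome 6 median was -0.43 to -0.40, and that of chromosome 8 was -0.60 and -0.65 from conv-dSVA_F replicate 1 and -0.44 and -0.46 from replicate 2. The shift ran along both chromosomes: cut into 6 parts of equal gene number, the medians were -0.49 to -0.30 on chromosome 6 and -0.59 to -0.46 on chromosome 8.

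Chromosome 18 was shifted in 1 library. Its median was 0.53 and 0.58 in pairs with conv-dSVA_F&D replicate 2 and 0.02 in both pairs with replicate 1, and 16 of 372 genes were higher (4.3%) and 2 lower. Both lower genes, Spry4 and Rbfaos, went against that shift. The 7 tested Y genes had a median of 0.69, which was 1.01 and 0.99 from conv-dSVA_F replicate 1 and 0.44 and 0.42 from replicate 2. The zinc finger gene Zfy1 (17.9 and 36.6 against 255 and 196, 3.08 ± 0.49, adjusted p = 0.0171), the ubiquitin-activating enzyme gene Uba1y (342 and 523 against 1049 and 1227, 1.42 ± 0.23, adjusted p = 0.0176) and the RNA helicase gene Ddx3y (1287 and 1387 against 2181 and 2131, 0.69 ± 0.12, adjusted p = 0.0212) were higher, while Eif2s3y read 660.3 and 977 against 1327 and 184, low in 1 conv-dSVA_F&D library.

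After the median of each chromosome was set equal in every library, 125 genes were higher (0.82%) and 48 lower (0.315%). Of the 597 calls 166 were still called, and 589 kept the sign of their difference. Of the lower calls 4 were on chromosome 6 and 2 on chromosome 8 in that fit. Glycolysis kept 3 calls and the other hypoxia-inducible genes 4, all higher, with medians of 0.73 and 0.79, and the IGF list had 5. Taf1 (0.98, adjusted p = 0.0182), Mest, Nqo1, Igfbp4 (3.37, adjusted p = 0.0147) and Bmp4 (-3.20, adjusted p = 0.022) stayed under 0.05, and so did Zfy1 (2.14, adjusted p = 0.0395). Uba1y fell short at 0.49 (adjusted p = 0.201), and Ddx3y stood at -0.25. The Y median was taken over at most 7 genes, with Zfy1, Uba1y and Ddx3y among them. Their values in that fit are thus partly set by the procedure. Of the 84 called genes named by the rule 39 besides Ddx3y were no longer called, among them Uba1y, Pgk1 (1.05, adjusted p = 0.0655), Sgce (-2.72, adjusted p = 0.0655) and Id3 (-1.49, adjusted p = 0.0677).

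**Figure D5:**
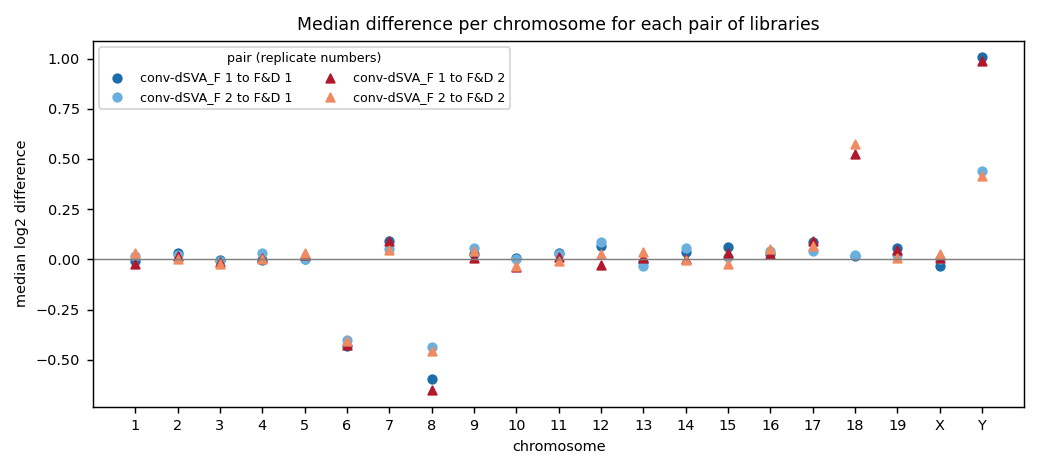
Median log2 difference over tested genes of each chromosome (x) for each of the 4 pairs of a conv-dSVA_F and a conv-dSVA_F&D library (points). Chromosomes 6 and 8 lie at or below -0.40 in all pairs, chromosome 18 is near 0.5 only in pairs with conv-dSVA_F&D replicate 2 (triangles), and Y, with 7 genes, is above 0.4 in all pairs.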

How the data were processed

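Stranded total RNA sequencing of stem cell lines was deposited as gene counts divided by a size factor for each library, here called normalized counts (unit signal); per the submitters' processing notes, Trimmomatic 0.36, STAR 2.7.3, featureCounts 1.6.3, DESeq2 and mm10 were used. Values within 0.1 of a whole multiple of each library's smallest step gave back whole reads (100.0% of values in each library). Genes whose 7-library mean reached 10 were fitted on log2(normalized count + 1) with limma 3.58.1 (R 4.3.3; 4 group means, variance trend, 3 residual and 6.8 prior degrees of freedom; two-sided, Benjamini-Hochberg 0.05). edgeR 4.0.16 and DESeq2 1.42.0 on the recovered reads, other filters, added counts and scalings, and leaving out each library were alternatives. Only the main limma, edgeR and DESeq2 fits were also run on simulated counts, with the same assumed replicate spread for every gene. That outcome is not reported here. A level of 3 reads was 2.45 to 4.18 normalized counts. Positions came from GENCODE M21, and promoters from RefSeq GRCm38.p6. For chromosome-equal values, each chromosome's median over genes with a mean of at least 50 was set equal in every library.

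Named were Taf1, up to 12 called genes in each direction with the largest difference, a mean reaching 100 and groups that did not overlap, the same outside chromosomes 6, 8, 18 and Y, and from each of 43 gene lists up to 6 called members or, with none, up to 2 of smallest p. Members and lists were chosen with earlier results of these data known. Other series libraries, striatum included, were not analysed here.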

Additional observations from a re-analysis of the deposited data

How the results depend on the processing

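No paired analysis was possible because the labels give no replicate numbers. Without the variance trend or the low-value filter no gene was called, and Taf1 (1.02) had adjusted p = 0.191 and 0.15 with limma. DESeq2 called 1206 genes (705 outside chromosomes 6, 8, 18 and Y), the 4 libraries alone 200 (101), and equal chromosome medians 173 (148), of which 72.3% were higher against 43.6% of 597. Leaving out 1 library in turn gave 0 to 865 calls, 0 to 507 outside those chromosomes and 0 to 373 with equal medians (chosen after seeing the data), each lowest without conv-dSVA_F replicate 1 and highest without conv-dSVA_F&D replicate 1; outside those chromosomes the latter gave 206 higher and 301 lower. Taf1 ranged from 0.90 to 1.14, and the medians of chromosome 6 from -0.45 to -0.39, of 8 from -0.63 to -0.45, of 18 from 0.02 to 0.56 and of Y from 0.28 to 0.91. Of the called genes named, only Ddx3y changed sign, to -0.25 with equal medians, where it is itself among the few genes that set the Y median. Uncalled members such as Slc2a3 and Hk2 also changed sign. Within 100 bases ACGTG was in 21.1% of glycolysis promoters and CTTTGA in 0% of WNT target promoters. The cause of these changes was not tested. With 2 libraries a line and the shallowest at 16588467 reads, genes of low level were least well measured.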

Other observations

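The genes in these paragraphs were picked one by one after their values were seen and stand for no group. Higher calls took in the glycogen synthase gene Gys1 (904 and 1473 against 2474 and 2353, 1.06, adjusted p = 0.0234), the phosphoglucomutase genes Pgm1 (643 and 1156 against 2414 and 2208, 1.42, adjusted p = 0.0229) and Pgm2 (539 and 722 against 1125 and 1094, 0.83, adjusted p = 0.0441) and the galactokinase gene Galk1 (1759 and 2155 against 3867 and 3857, 0.99 ± 0.13, adjusted p = 0.0108). The glycogen phosphorylase gene Pygb was lower (3829 and 4699 against 2212 and 2864, -0.75, adjusted p = 0.0282). Other higher calls were Agrn, agrin (2763 and 2761 against 6117 and 5622, 1.09 ± 0.11, adjusted p = 0.00875), Nid1, nidogen (2747 and 3219 against 8186 and 5238, 1.14, adjusted p = 0.0176), Fbln1, fibulin (347 and 600.2 against 1372 and 1022, 1.37, adjusted p = 0.0229), and Col18a1, a basement membrane collagen (2885 and 3558 against 5006 and 6609, 0.84, adjusted p = 0.0282). The growth factor gene Pdgfc was higher with close replicates (535 and 584 against 1671 and 1758, 1.61 ± 0.14, adjusted p = 0.00425). The Hedgehog receptor and target gene Ptch1 (466 and 451 against 1276 and 1003, 1.30 ± 0.16, adjusted p = 0.0108) and the Hedgehog effector Gli2 (504 and 654 against 1371 and 1139.5, 1.12, adjusted p = 0.0175) were higher, as were the histone demethylase genes Kdm6b (366 and 268 against 1279 and 827, 1.71 ± 0.24, adjusted p = 0.013) and Kdm6a (1361 and 1382 against 1985 and 2014, 0.54, adjusted p = 0.0316).

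Lower calls outside the shifted chromosomes took in Tmsb4x, thymosin beta 4 (7119 and 6089 against 1998 and 3948, -1.23, adjusted p = 0.0306), and the myosin light chain genes Myl9 (917 and 694 against 337 and 354, -1.21, adjusted p = 0.0498) and Myl12b (1469 and 949 against 599 and 461, -1.17, adjusted p = 0.0264), and the histone genes H2bc9 (6356 and 8852 against 2327 and 4271, -1.25, adjusted p = 0.0275), H2ac1 (677 and 633 against 277 and 366, -1.04, adjusted p = 0.0218) and H2bc15 (15281 and 15522 against 10825 and 10894, -0.50, adjusted p = 0.0452), whose close copies may share reads. The phosphatase genes Dusp9 (3839 and 3408 against 2322 and 2381, -0.62, adjusted p = 0.0259) and Dusp14 (2223 and 2115 against 1014 and 1335, -0.90, adjusted p = 0.0198) and the stem cell Ras gene Eras (578 and 576 against 321 and 375, -0.73, adjusted p = 0.0408) were lower too. The zinc finger genes called higher on chromosome 4 included Zfp981 (1069.6 and 1325 against 2236 and 2409.9, 0.96, adjusted p = 0.0135), Zfp982 (0.82), Zfp985 (0.58) and Zfp992 (0.66), with Zfp981 and Zfp992 higher still in the wild type (3224 and 1663). The noncoding RNA gene B230303O12Rik read 0 and 0 against 7.32 and 11477 and at most 12.5 in the other 3 libraries, so 1 library held nearly all of its reads, and its difference was not called (8.27, adjusted p = 0.11).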
